A study of Caenorhabditis elegans with 2 samples.

Results

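The sodium leak channel complex of Caenorhabditis elegans was described here through the genes unc-80, unc-79, nca-2 and nlf-1, which are 4 of the 19973 protein-coding genes annotated on the nuclear chromosomes (WBcel235, Ensembl release 115). They were chosen by name for their role in 1 channel complex, and selected on an earlier reading of the same peak lists in which unc-80 had a peak, so their values are a description and were not tested. The lists come from sequencing of chromatin immunoprecipitated with ZAG-1, a zinc finger homeodomain protein, in L1 larvae. An entry of the pooled or replicate lists need not be a site bound by ZAG-1. Both samples, biological replicates 1 and 2 of a single group, were whole animals of strain OP83, which is mutant for unc-119 (ed3, on III) and carries the integrated transgene wgIs83 with zag-1 fused to eGFP. Sex was mixed, no age was recorded, and in whole animals the cells in which a site was occupied cannot be told apart. No samples without the transgene were used, and the depth of either library is unknown.

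The sodium leak channel is a voltage-insensitive relative of the voltage-gated calcium channels that passes a small resting inward current and so helps to set the resting potential of neurons. In worms, nca-2 and its paralog unc-77 (also called nca-1) encode the pore-forming subunits, and unc-80 and unc-79 encode large auxiliary proteins on which the level and axonal localisation of the pore depend. NLF-1 is a protein of the endoplasmic reticulum needed for delivery of the channel to the axon. Loss of unc-80, of unc-79 or of nlf-1 gives worms that stop abruptly when they move, the fainter phenotype, as does loss of nca-2 together with unc-77, which act redundantly.

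An entry was counted for a gene when its summit lay within 5000 bp of an annotated transcript start of that gene or within the gene body. Of the 4 genes, 2 had a peak of the optimal list in that window, unc-80 and nca-2, against 5.52% of all protein-coding genes (1103 of 19973). The optimal list has 478 peaks, all of them also entries of the 30000 in the pooled list, and its lowest signal was 29.6, at pooled rank 478. All 4 genes had entries of the pooled list, as did 91.2% of all protein-coding genes. The pooled list is named as holding background as well as peaks. The highest pooled entry had a signal of 37.3 (rank 248 of 30000) at unc-80, 31.7 (rank 399) at nca-2, 20.9 (rank 1255) at nlf-1 and 16.1 (rank 3111) at unc-79. The −log10 q of these entries was 2.22, 1.95, 1.20 and 0.535, in that order. It fell to 0.046 among the other pooled entries of these genes. The signal is the authors' own value for each entry, whose scale is not stated, and was compared only within a list.

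**Figure D1:**
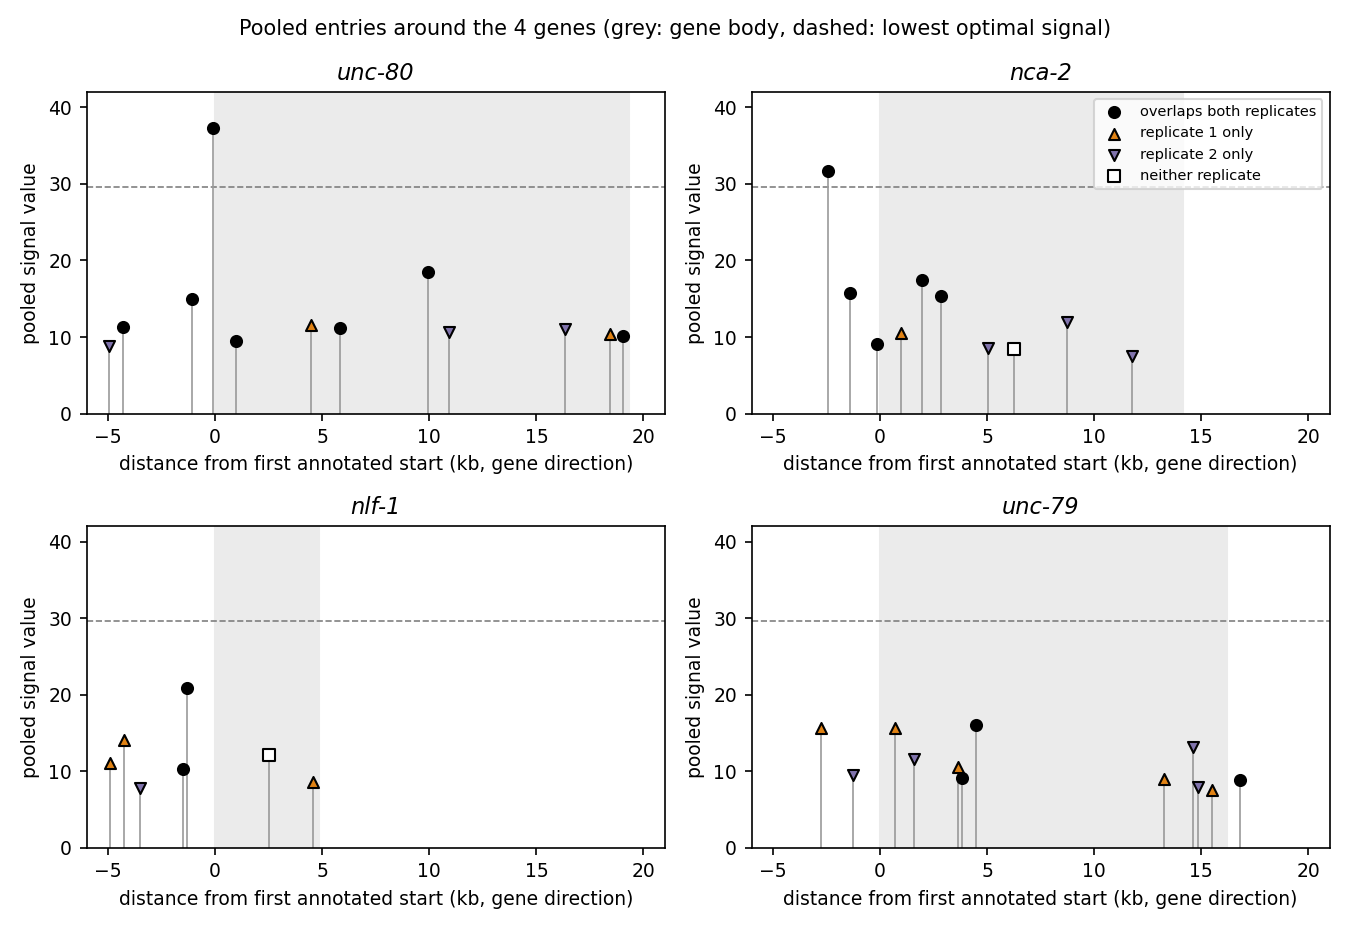
Signal of each pooled entry (vertical axis, the authors' value) against the distance of its summit from the first annotated start (kb in the direction of the gene, negative upstream) for unc-80, nca-2, nlf-1 and unc-79. Grey marks the gene body, the dashed line the lowest optimal signal of 29.6, and the symbols show which replicate lists had an overlapping entry; the entries at unc-80 and nca-2 above the line both overlapped entries of both replicates.

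The pore-forming gene nca-2 (III 4965571 to 4979738, plus strand, 14168 bp) had its optimal peak upstream of the gene, at III 4962960 to 4963303 on ce11, with the summit 2439 bp before the annotated start. The same summit lay 88 bp from the start of C27F2.9, a protein-coding gene on the other strand, separated from nca-2 by 2526 bp. The peak overlapped C27F2.9 at that start. The windows of 4 protein-coding genes held this peak: C27F2.4, vps-22 (an ESCRT-II subunit gene), C27F2.9 and nca-2. By the nearest start it belonged to C27F2.9 and not to nca-2, and the lists do not show on which of these genes a factor bound there would act. The pooled signal was 31.7 with a −log10 q of 1.95. Replicate 2 ranked the site 402 of 30000 with a signal of 21.8, and replicate 1 ranked it 1134 with a signal of 9.93, outside the 478 highest. The summits of the replicates lay 2 bp (replicate 1) and 37 bp (replicate 2) from the pooled summit, so the replicates placed the site within 37 bp of the pooled summit and gave it different ranks.

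The 201 bases around the nca-2 summit (chrIII:4963032-4963232, ce11, plus strand) are shown because the summit lies between a divergent pair of genes and the stretch held none of the 5 hexamers searched for:
nca-2: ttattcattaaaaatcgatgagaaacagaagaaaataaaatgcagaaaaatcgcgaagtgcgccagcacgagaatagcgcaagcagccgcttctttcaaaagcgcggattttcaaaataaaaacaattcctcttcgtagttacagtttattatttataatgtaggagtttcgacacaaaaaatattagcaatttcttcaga
The stretch had a GC content of 33.8%, where optimal peaks averaged 43.3% and all pooled entries 33.1%, and 49.8% of it was soft-masked in the RefSeq genome (WBcel235), against means of 25.9% and 39.1%.

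The other 9 pooled entries of nca-2 had lower signal, and most of them lay within the gene. The second, at rank 2302 with a signal of 17.5, was in intron 1 of the longest transcript, 1937 bp past the first start. Its summit was at the same base in the pooled list and in both replicates. Taking the overlapping entry of highest rank in each replicate, this was so for no other of the 41 entries of the 4 genes. The share of all pooled entries with such a match is not given, so how common it is remains unknown. The entry in intron 1 had rank 9740 in replicate 1 and rank 13606 in replicate 2. A further entry upstream, 1409 bp before the start, had rank 3424 (signal 15.7) and ranks of 2315 in replicate 1 and 20220 in replicate 2. The entry nearest to the annotated nca-2 start lay 144 bp upstream of it and had rank 19486 (signal 9.15). Entries in introns of nca-2 overlapped the ncRNA genes C27F2.14 (rank 3762) and C27F2.11 (rank 22720). The window of nca-2 held 6 entries of the list of replicate 1 and 12 of that of replicate 2.

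unc-80 (V 20879601 to 20898948, plus strand, 19348 bp), an auxiliary subunit gene, had the optimal peak of highest signal in the complex and the only one at a member's own start. It was at V 20879323 to 20879666, with the summit 106 bp upstream of the first of 3 annotated starts, and no other protein-coding gene had it in its window. The next protein-coding gene upstream, F31D4.8, is on the other strand and 11171 bp away. The pooled signal was 37.3 and the −log10 q 2.22. In replicate 2 the site had rank 109 (signal 32.9, −log10 q 2.34) and in replicate 1 rank 295 (signal 14.1, −log10 q 1.66), with summits 66 and 26 bp from the pooled summit. It was thus among the 478 highest entries of both replicates, which was not so for any entry at the other 3 genes. Rank 248 put it just outside the upper 239 optimal peaks.

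The 201 bases around the unc-80 summit (chrV:20879395-20879595, ce11, plus strand, ending just before the first start) are shown because they hold hexamers that are frequent in optimal peaks, here in capitals. The capitals mark GAGAGA in the first stretch, and CGTCTC with the overlapping GACGCA in the second, each searched on both strands:
unc-80: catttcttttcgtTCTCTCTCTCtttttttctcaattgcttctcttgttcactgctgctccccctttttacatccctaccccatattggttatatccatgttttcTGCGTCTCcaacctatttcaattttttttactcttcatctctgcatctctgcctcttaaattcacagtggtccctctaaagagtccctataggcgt
GAGAGA occurred on the minus strand in 3 overlapping copies whose first bases lay 87, 85 and 83 bp upstream of the summit, and it was found in 49.4% of optimal windows of this length and 12.9% of pooled ones. CGTCTC began 7 bp downstream of the summit on the plus strand (36.4% of optimal and 6.24% of pooled windows) and overlapped GACGCA on the minus strand, 5 bp downstream (27.8% and 4.67%). Neither CAGGTG nor CAGGTA, the hexamers of the E-box known for ZEB-class proteins, was in the window at unc-80 or at the highest entry of nca-2, nlf-1 or unc-79. Those E-box hexamers occurred in 1.88% and 1.67% of optimal windows and in 3.91% and 4.23% of pooled windows, so their absence from 4 windows is common to most windows. A match is only a run of letters, and which hexamers were searched was known from an earlier reading of these lists.

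The other 11 pooled entries of unc-80 were spread from 4958 bp upstream of its start to the last intron. The second, with a signal of 18.5 at rank 1865, lay in exon 16 of the 34 exons of the longest transcript, 9647 bp from the nearest start, and had ranks of 8497 in replicate 1 and 14744 in replicate 2. Its summit in replicate 1 lay in intron 16, and that in replicate 2 in exon 16. An entry 1080 bp upstream of the start had rank 4033 (signal 15.0). In exons or introns of unc-80 lay 8 of the 12 entries, and 1 of them, in the middle of the gene, overlapped the ncRNA gene F25C8.6. At the far end of unc-80, the summits at ranks 14132 and 15091 had amx-3, an amine oxidase gene, as the gene with the nearest start. An entry 4320 bp upstream was only at rank 10787 in the pooled list, although replicate 1 had an overlapping entry at rank 1504 and replicate 2 one at rank 2560, with summits 206 and 90 bp away. Of the 12 entries, 7 overlapped entries of both replicates.

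unc-79 (III 4066633 to 4082849, plus strand, 16217 bp), the other auxiliary subunit gene, had 12 pooled entries and no optimal peak, and the nearest optimal summit was 48.3 kb from any of its starts. No entry of unc-79 stood out in the pooled list: the highest 3 had signals of 16.1, 15.7 and 15.6, at ranks 3111, 3468 and 3509. The first had its pooled summit in coding exon 4 of 26, 4498 bp past the start. There replicate 1 had rank 3025, with its summit in intron 3, and replicate 2 rank 9192, with its summit in exon 4. The second lay 2765 bp upstream and covered the ncRNA gene E03A3.11. The third was in intron 1, 692 bp past the start.

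Replicate 1 on its own ranked unc-79 far higher than the pooled list did. Its entry over E03A3.11 had rank 287 (signal 14.2, −log10 q 1.72), above the rank of 295 that the unc-80 site had in the same replicate. Another entry of replicate 1, in intron 2 of unc-79 and 3630 bp past the start, had rank 370 (signal 13.2). Neither of these entries overlapped any of the 30000 entries of replicate 2, which was so for 55 of the 478 highest entries of replicate 1 (11.5%). Replicate 2 had an entry of rank 24187 just beyond the end of the one in intron 2, at III 4070438 to 4070813. The pooled entries at these sites had rank 3468 at E03A3.11, and ranks 13619 and 19883 for a pair of overlapping entries in intron 2, the second of which overlapped entries of both replicates. The second also overlapped a replicate 1 entry of rank 26154 (signal 3.66), whose summit was at the same base as its own. The entry of highest rank that replicate 2 had at unc-79 had rank 4716 (signal 10.8) and overlapped the pooled entry of rank 6427 in exon 22 of 26, where replicate 1 had none. Taking the 478 highest entries of each replicate in place of the optimal list, replicate 1 gave unc-80 and unc-79 (5.62% of all protein-coding genes had one), and replicate 2 gave unc-80 and nca-2 (5.28%). Of the 4 genes, unc-80 was the one found in both.

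The 201 bases around the highest pooled summit of unc-79 (chrIII:4071031-4071231, ce11, plus strand) are shown as an exonic entry that, like the optimal peak of nca-2, held none of the 5 hexamers:
unc-79: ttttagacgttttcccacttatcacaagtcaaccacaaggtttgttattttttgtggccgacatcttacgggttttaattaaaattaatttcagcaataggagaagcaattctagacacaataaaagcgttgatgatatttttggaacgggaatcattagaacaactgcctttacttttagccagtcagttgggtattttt
Its GC content was 34.3%. Of optimal windows 32.0% held none of the 5 hexamers, and of pooled windows 74.7%. The second pooled entry of unc-79, at rank 3468, held GAGAGA and had a GC content of 54.7%. The third, at rank 3509, held none of the hexamers and had 25.9%.

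nlf-1 (X 1012715 to 1017567, minus strand, 4853 bp), the gene of the endoplasmic reticulum protein, had the higher pooled rank of the genes without an optimal peak. The highest pooled entry of nlf-1, at X 1018713 to 1019056, had its summit 1318 bp upstream of the single annotated start, a signal of 20.9 and a −log10 q of 1.20. The nearest optimal summit was 67.9 kb from that start. Replicate 2 had the site at rank 521 (signal 20.2, −log10 q 1.90) with its summit 4 bp away, outside the 478 highest. In replicate 1 the overlapping entry had rank 12479 (signal 5.19) and a summit 204 bp away. That summit was at the same base as the summit of another pooled entry, 1522 bp upstream of the start and at rank 14373. The highest pooled entry covered part of F55A4.12, annotated as ncRNA. The highest entry of replicate 1 around nlf-1 was instead 4274 bp upstream, at rank 887 (signal 10.5), where the pooled entry had rank 5194 and replicate 2 had no entry. So the replicates did not rank the same site highest at nlf-1 or at unc-79, and did so at unc-80 and nca-2.

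The 201 bases around the nlf-1 summit (chrX:1018785-1018985, ce11, minus strand, in the direction of the gene) are shown because of their composition:
nlf-1: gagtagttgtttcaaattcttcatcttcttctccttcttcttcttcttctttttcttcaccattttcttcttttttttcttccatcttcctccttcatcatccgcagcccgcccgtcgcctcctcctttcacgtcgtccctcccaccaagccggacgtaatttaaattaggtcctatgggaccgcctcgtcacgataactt
Read in the direction of the gene, 74.1% of these bases were pyrimidines, and at the unc-80 summit shown above the share was 74.6%. The second pooled entry of nlf-1, at rank 5194, also had a share of 74.1%. Counting the richer strand of each window, 1.46% of optimal windows (7 of 478) and 0.213% of pooled windows (64 of 30000) were as rich as at nlf-1. As rich as at unc-80 were 1.46% of optimal and 0.167% of pooled windows. The median was 56.7% in optimal and 54.2% in pooled windows. By the same count, 51.7% of optimal and 30.7% of pooled windows were as rich as at the highest entry of nca-2, and 86.2% and 74.7% as rich as at that of unc-79. No difference between the genes was tested. This composition was measured after the sequences had been seen. Of the hexamers, none was found at the nlf-1 summit.

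**Figure D2:**
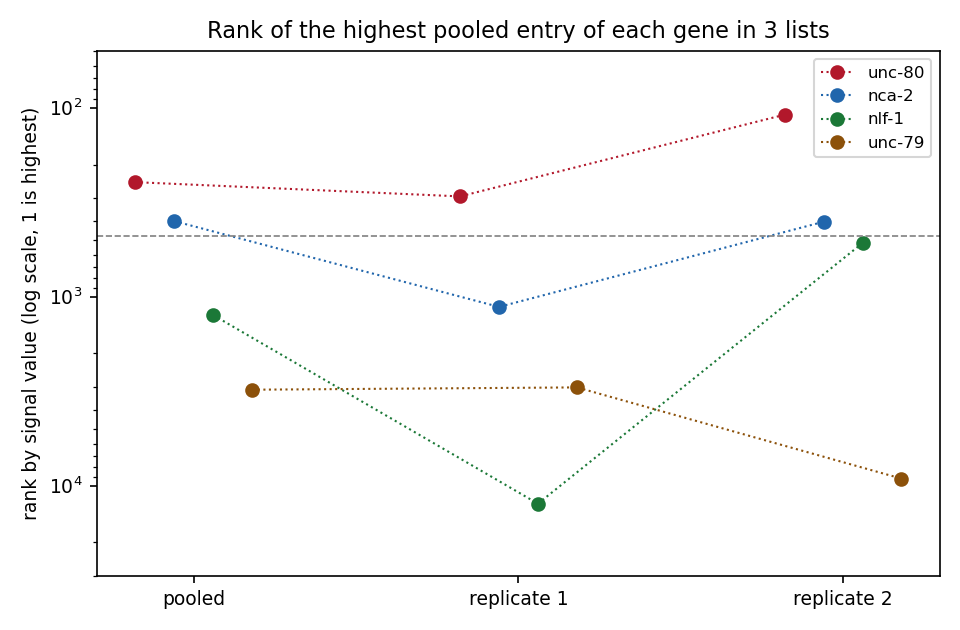
Rank by signal (log scale, 1 is highest) of the highest pooled entry of each gene in the pooled list, and of the overlapping entry in the lists of replicate 1 and replicate 2. The dashed line is rank 478; unc-80 lies above it in all 3 lists, nca-2 in the pooled list and replicate 2, and nlf-1 and unc-79 in none.

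Across the 4 genes, 41 pooled entries lay in the windows, 12 at unc-80, 12 at unc-79, 10 at nca-2 and 7 at nlf-1, where the median over all protein-coding genes was 3. Per kb of window this was 0.493 at unc-80, 0.545 at unc-79, 0.522 at nca-2 and 0.6999 at nlf-1, against a median of 0.298. Long genes have longer windows: that of unc-80 spanned 24.3 kb, against a median of 10.001 kb. Genes with a window of 80 to 125% of the length of a member's had a median of 7 pooled entries for unc-80. This median was 6 for unc-79, 6 for nca-2 and 3 for nlf-1. Among the 412 genes with a window of 80 to 125% of the length of that of unc-80, 12.1% had an optimal peak, and the same share was 12.5% for unc-79 (72 of 575), 9.80% for nca-2 (87 of 888) and 5.08% for nlf-1 (902 of 17766). An entry at rank 248 or higher, as at unc-80, was found for 6.31% of the 412 genes, and one at rank 399 or higher, as at nca-2, for 8.90% of 888. For nlf-1, 11.7% of genes with windows of its length had an entry at rank 1255 or higher. For unc-79, 47.3% of the 575 genes had an entry at rank 3111 or higher.

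By location of the pooled summit, 10 of the 41 entries (24.4%) were in coding exons, against 8.99% of all pooled entries and 0 of the 478 optimal peaks. Introns held 14 (34.1% against 27.7% of the pooled list), intergenic sequence 12 (29.3% against 31.2%) and untranslated regions 1. Within 500 bp of a protein-coding start lay 4 (9.76% against 25.9%), namely the optimal peak of unc-80 and 3 entries of nca-2, of which 1 was the optimal peak at C27F2.9. Gene bodies, which the windows take in whole, held 26 of the 41. The shares of the pooled and optimal lists were not limited to such windows, so the location shares are not like for like. Genes annotated as ncRNA were overlapped by 5 entries (12.2%), against 4.18% of pooled entries and 17.8% of optimal peaks. Leaving out entries in gene bodies, the outermost entries in the windows lay 4958 bp from the start at unc-80 (signal 8.77) and 4909 bp at nlf-1 (signal 11.1). The next ones outside the windows lay 6179 bp (signal 9.24) and 6520 bp (signal 8.34) from those starts. By the same count, the limit at unc-79 fell between 4771 bp (signal 8.81) and 6194 bp (signal 13.5). At nca-2 it fell between 2439 bp, the optimal peak itself, and 9753 bp (signal 9.92). Entries within the body of nca-2 lay up to 7082 bp from its nearest start.

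Overlap with entries of both replicates was found at 17 of the 41 entries (41.5%, 95% Wilson interval 27.8 to 56.6, counting error only), against 32.0% of all pooled entries. Agreement went with rank: both optimal peaks had it, as did 7 of the 9 entries at ranks 479 to 5000 (70.8% of all pooled entries of those ranks) and 8 of the 30 below (23.7%). Replicate 1 had an overlapping entry at 28 of the 41 (68.3%, against 54.1% of all pooled entries). Replicate 2 also had one at 28 (68.3%, against 68.1%). The entries that overlapped none in either were 2, 1 at nca-2 and 1 at nlf-1 (4.88%, against 9.77%). By gene, both replicates overlapped 7 of 12 entries at unc-80, 3 of 12 at unc-79, 5 of 10 at nca-2 and 2 of 7 at nlf-1. Neighbouring pooled entries can share a replicate entry, so these are not independent counts. The interval takes the entries as independent and so does not measure their spread.

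**Figure D3:**
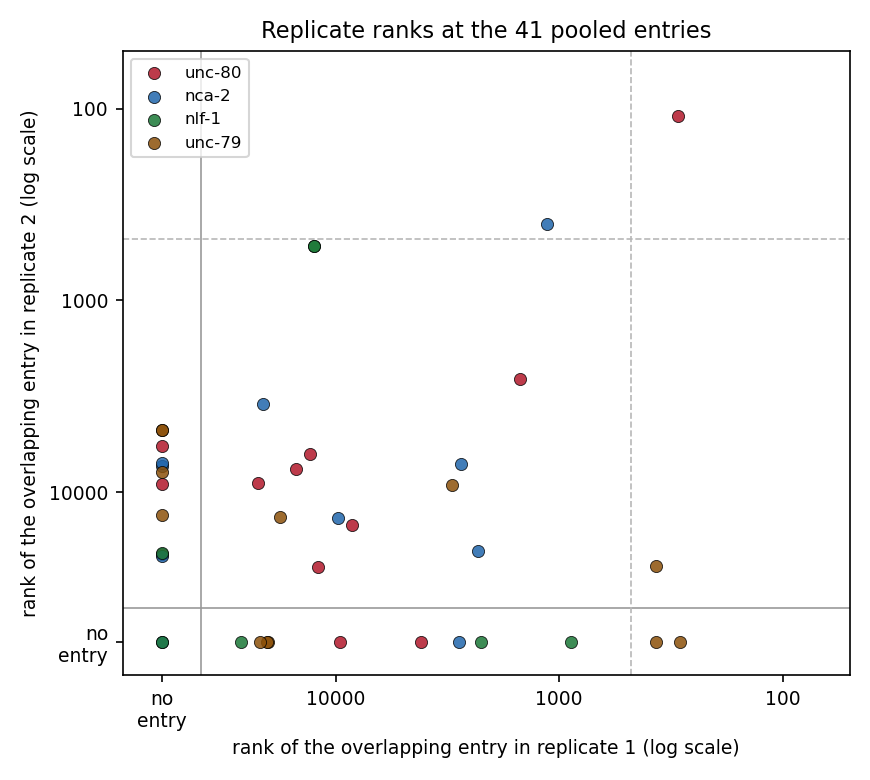
Rank of the overlapping entry in replicate 1 (horizontal) against that in replicate 2 (vertical) for the 41 pooled entries, both on log scales with rank 1 toward the upper right; entries with no overlap in a replicate lie beyond the grey lines, and dashed lines mark rank 478. The optimal peak of unc-80 is the 1 entry past both dashed lines, and the unc-79 entries at ranks 287 and 370 of replicate 1 lie at the lower right, rank 370 under a pair of pooled entries. Where more than 1 entry of a replicate overlapped, the rank is that of the highest. The second of the pair also overlapped an entry at rank 26154 of replicate 1.

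Peaks with nearly the same pooled signal as that of unc-80 were those at rgef-1 and C04C11.25 just above it and at let-607 and nhr-1 just below, with signals within 0.0826 of it. rgef-1 encodes a neuronal Ras exchange factor, let-607 a bZIP transcription factor and nhr-1 a nuclear hormone receptor, and the peaks at rgef-1, let-607 and nhr-1 also lay within 500 bp of a start (388, 123 and 310 bp). Around the nca-2 peak the neighbours in signal were pola-1 and unc-31 (which acts in dense-core vesicle release) above and H10E21.5 and W09D10.4 below, within 0.0934. Likeness here means the difference in pooled signal, from 1 pooled list, and says nothing else about the genes.

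The paralog unc-77, singled out after its values were seen, had no optimal peak in its window, and the nearest optimal summit was 140.0 kb from its starts. unc-77 (IV 6157306 to 6183857, minus strand) had 12 pooled entries. The highest had a signal of 20.2 at rank 1415 and lay in a coding exon 8486 bp past the nearest start, with ranks of 9985 in replicate 1 and 1494 in replicate 2.

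Among 12 genes, made up of unc-77 and others placed in a pathway with the leak channels by worm genetics, 4 had an optimal peak in their window, against 5.52% of all protein-coding genes. Windows of the 12 spanned up to 37.4 kb (unc-73). Neither this share nor their median rank given below was matched for window length. The 4 were egl-30, which encodes the Gq alpha subunit, egl-10 and eat-16, which encode RGS proteins that act on Go and Gq, and goa-1, which encodes the Go alpha subunit. The strongest peak in the window of egl-30 had a signal of 45.05 (rank 150) with its summit 67 bp upstream of the start, and ranks of 116 in replicate 1 and 342 in replicate 2. This entry also overlapped the ribosomal protein gene rpl-27. A second optimal peak of egl-30 had rank 344. eat-16 had a peak at rank 83 (signal 53.8), for which ceh-5 had the nearest start, and another at rank 458, 579 bp upstream of a start of eat-16. The peak at rank 83 had its summit in an untranslated region in the last exon of eat-16. Both peaks overlapped the gene ocrl-1, and that at rank 458 also overlapped C16C2.7 and C16C2.8. The peak of egl-10, at rank 226 (signal 38.7), lay 2596 bp upstream, with ranks of 468 and 288 in replicates 1 and 2. That of goa-1, at rank 288 (signal 35.8), lay 3575 bp upstream and nearer to C26C6.9, and replicate 1 ranked it 2750 and replicate 2 ranked it 176. The median rank of the highest pooled entry was 747 over these 12 genes and 827 over the 4 channel complex genes, against 6573.5 over the 18218 protein-coding genes with an entry. Among genes with an entry and a window of similar length the median was 3048 for unc-80, 3278 for unc-79, 3622 for nca-2 and 7080 for nlf-1, whose own highest entries had ranks 248, 3111, 399 and 1255.

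Of 8 genes of voltage-gated calcium channels and related channels, their auxiliary subunits and calf-1, which encodes an endoplasmic reticulum protein needed for calcium channel localisation, 2 had an optimal peak in the window, against the same 5.52%. egl-19, the L-type alpha subunit gene, had one at rank 285 (signal 35.9), 3370 bp upstream and nearer to C48A7.16, with rank 124 in replicate 1 and 887 in replicate 2. ccb-1, a beta subunit gene, had one at rank 378 (signal 32.6), 1020 bp upstream of its start, with rank 6432 in replicate 1 and 154 in replicate 2. The median best rank of the 8 genes was 2725. Their windows spanned up to 57.6 kb (unc-2), and neither the 5.52% nor this median was set against genes with windows of like length. Neither list was tested against other genes.

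**Figure D4:**
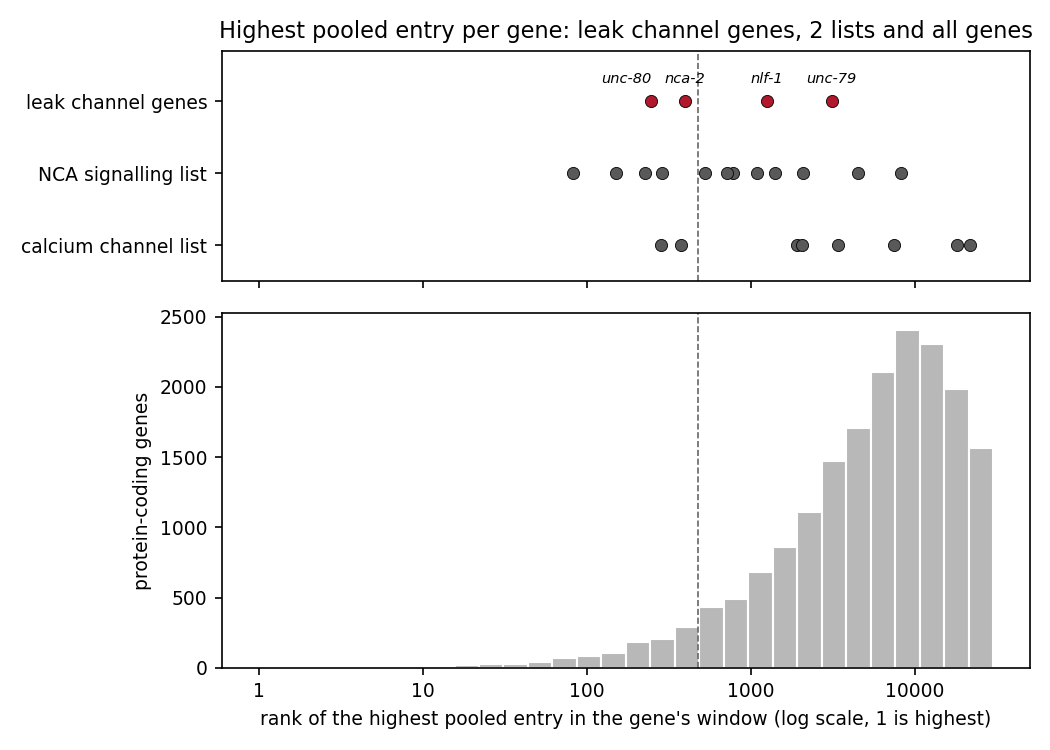
Upper panel: rank of the highest pooled entry (log scale, 1 is highest) for the leak channel genes, the 12 genes of the signalling list and the 8 of the calcium channel list, 1 point a gene. Lower panel: the same over the 18218 protein-coding genes with a pooled entry; the dashed line is rank 478, and unc-80 and nca-2 lie on its left at ranks 248 and 399.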

How the data were processed

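Chromatin immunoprecipitation of eGFP-tagged ZAG-1 was sequenced from 2 replicates of whole L1 larvae. Peaks on ce11 were deposited as 4 lists, 1 for each replicate, 1 pooled and 1 optimal list. The first 3 were derived from the alignments and a further file that also enters the control-normalized signal tracks, and the optimal list from those 3 by a threshold on the irreproducible discovery rate, per the release notes. The aligner, the peak caller, any version and the read depth were not given in the sources used here. Column 7 holds the signal value and column 9 the −log10 q as deposited by the authors. Both were used only within a list. Lists on ce10 were not used, since coordinates were not converted.

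Summits were placed on Ensembl release 115 models (WBcel235, the same build as ce11) with Python 3.11.15, numpy 2.4.6, pandas 2.3.3 and scipy 1.17.1. Ties in signal got the mean rank. An overlap was 1 bp or more. Location classes took the first that applied of: within 500 bp of a protein-coding start, coding exon, UTR, intron, other gene, intergenic. Motif windows ran 100 bp to each side of a summit of the RefSeq genome, on both strands. Placement was tested on simulated data. There is 1 group, so no test was made. Members, gene lists and motifs were chosen with earlier results of these data known. Genes named from the lists are those with an optimal peak, besides unc-77, calf-1 and those gained under an alternative (named after their values were seen), and those named for likeness belong to the 2 peaks above and below a member's peak in signal.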

Additional observations from a re-analysis of the deposited data

How the results depend on the processing

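The calls rest on the window and on the threshold of the optimal list. With 1000 bp around starts, 1 of the 4 leak channel genes had an optimal peak, unc-80, against 2.42% of all protein-coding genes. The peak counted for nca-2 lies 2439 bp from its start and closer to that of C27F2.9. With each peak given only to the gene of the nearest start the count was 1, unc-80 again, against 2.18%. In the upper 239 optimal peaks it was 0, as unc-80 is at rank 248, against 2.99%. Windows of 10000 bp (9.41% of all genes), or of 5000 bp without gene bodies (5.50%), gave unc-80 and nca-2. The count stayed at 2 with a single replicate, but of different genes: unc-80 and nca-2 without replicate 1 (5.28%), and unc-80 and unc-79 without replicate 2 (5.62%).

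The shares of all genes just given, which are not matched for window length, also apply to both lists. For the calcium channel list the count was 0 with 1000 bp, 1 by nearest start, 0 in the upper 239 peaks, and 1 without replicate 1 (ccb-1) or without replicate 2 (egl-19). For the signalling list it was 2 with 1000 bp (egl-30 and eat-16), and 3 by nearest start and in the upper 239 peaks, both times without goa-1. It was 5 without replicate 1, with rho-1 added, and 5 without replicate 2, with ric-8 and dgk-1 added and goa-1 lost.

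Entries of the 4 genes overlapped by both replicates numbered 11 of 41 with 50% of the entry required and 8 of 41 with summits within 100 bp. The cause of these changes was not tested. Shares over all pooled entries are not given for these settings, so neither count can be read against the whole list. No paired analysis was possible because there is 1 group and no test. Read depth is not given, so it is unknown how far it limits the ranks of either replicate.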
